A study of Mus musculus with 9 samples.

Results

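Most of the 46 genes described here encode mouse enzymes that write and erase methyl groups on histone lysines, apart from those of Polycomb repressive complex 2, or enzymes that methylate DNA or oxidize the methyl mark. Further lysine methylation enzymes lie outside the list. The 46 were taken by symbol from a fixed list of members and not by a cut on any measured value, but earlier results of these data were known when it was chosen. All 46 were found among the 28059 genes of the deposited expression table. RNA had been sequenced from YAMC cells, a mouse intestinal line, in 9 libraries. The parental group (3 libraries) was wild type, and the Cdk8 knockout clone 1 and clone 19 (3 libraries each) had been made from it with CRISPR. Cdk8 is the kinase of the Mediator kinase module, which joins the transcription machinery at enhancers and promoters. All 9 libraries came from cells grown at 32 °C and harvested in logarithmic growth. The labels give the tissue as small intestine, whereas the line is generally known as one from young adult mouse colon, held in growth at low temperature by a temperature-sensitive viral oncoprotein.

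Each knockout group is a single clone, and no wild-type clone is analysed here, so an effect of losing Cdk8 and a property of the founder cell of a clone cannot be told apart. The labels do not say whether the 3 libraries of a group came from separate cultures, so the p-values rest on the variation among these libraries alone, which may be technical. Both clones were set against the same parental libraries. The Cdk8 transcript itself read 17.5, 17.7 and 17.5 RPKM in the parental libraries, 10.3, 11.1 and 11.6 in clone 1, and 10.5, 10.3 and 10.3 in clone 19 (RPKM is reads per kilobase of gene and per megaread of library, so levels can be compared between genes). All 6 knockout libraries lay below parental cells (-0.66 and -0.74 in log2, limma adjusted p = 7.6e-08 and 3.5e-08), and these values do not show the edited sequence. Depth, estimated from the value that 1 read takes in low genes, ran from 22.9 to 43.5 megareads per library. Of 14 intestinal epithelial markers, Krt8, Krt18 and Krt19 were abundant (101 to 392 RPKM in parental cells), while Cdx2 was listed at 0 in every library and Epcam, Vil1, Muc2 and Lgr5 averaged at most 0.161 RPKM in any group. Vim averaged 1199 RPKM in parental cells, and 9 of 10 mesenchymal markers passed the expression filter. Of the immune, endothelial and neural markers, only Cd68, Kdr and Tubb3 passed it.

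Methyl groups on lysine 4, 36 and 79 of histone H3 are typical of transcribed genes, and those on lysine 9 of silent chromatin. Most writers share a catalytic SET domain; DOT1L does not. Erasers are either flavin-dependent (KDM1A and KDM1B) or belong to the JmjC family, which needs iron and 2-oxoglutarate. DNMT1 copies CpG methylation to the new strand after replication with the help of UHRF1, DNMT3A and DNMT3B place it afresh, and the TET enzymes oxidize it. In the intestinal epithelium, these enzymes are known for roles in stem cell renewal and differentiation.

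The promoters of the genes on which the results below turn are shown first, because they differ in CpG content and in repeats. Each is the 250 bases ahead of the most upstream RefSeq start on the mouse GRCm38.p6 assembly, written 5′ to 3′ along the gene. Capitals mark GGGCGG, the GC box, or CCAAT, on either strand. Dnmt3a lies at chr12:3806730-3806979 (plus strand), Tet2 at chr3:133544391-133544640 (minus), Setd7 at chr3:51560824-51561073 (minus), Ehmt1 at chr2:24919610-24919859 (minus), Uhrf1 at chr17:56303087-56303336 (plus) and Kdm5b at chr1:134559928-134560177 (plus).
Dnmt3a: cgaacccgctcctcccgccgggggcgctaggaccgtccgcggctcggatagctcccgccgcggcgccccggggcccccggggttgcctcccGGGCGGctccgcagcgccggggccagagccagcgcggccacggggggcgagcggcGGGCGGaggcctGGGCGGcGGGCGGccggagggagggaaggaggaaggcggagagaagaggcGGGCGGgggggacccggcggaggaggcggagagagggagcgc
Tet2: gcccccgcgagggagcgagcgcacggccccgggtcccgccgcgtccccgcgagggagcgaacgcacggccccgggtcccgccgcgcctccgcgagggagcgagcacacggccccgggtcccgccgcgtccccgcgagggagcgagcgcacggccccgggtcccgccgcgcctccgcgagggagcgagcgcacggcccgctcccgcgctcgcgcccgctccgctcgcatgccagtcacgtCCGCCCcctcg
Setd7: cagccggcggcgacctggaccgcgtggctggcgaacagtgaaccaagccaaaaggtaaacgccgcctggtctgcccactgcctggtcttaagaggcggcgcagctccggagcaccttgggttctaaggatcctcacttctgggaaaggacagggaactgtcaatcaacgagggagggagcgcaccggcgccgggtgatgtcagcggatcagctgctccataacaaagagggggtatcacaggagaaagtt
Ehmt1: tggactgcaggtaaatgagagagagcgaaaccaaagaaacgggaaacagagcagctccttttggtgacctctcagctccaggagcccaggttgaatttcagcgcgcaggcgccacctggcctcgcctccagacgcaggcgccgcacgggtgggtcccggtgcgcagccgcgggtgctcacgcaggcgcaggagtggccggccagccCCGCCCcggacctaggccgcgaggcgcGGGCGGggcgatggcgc
Uhrf1: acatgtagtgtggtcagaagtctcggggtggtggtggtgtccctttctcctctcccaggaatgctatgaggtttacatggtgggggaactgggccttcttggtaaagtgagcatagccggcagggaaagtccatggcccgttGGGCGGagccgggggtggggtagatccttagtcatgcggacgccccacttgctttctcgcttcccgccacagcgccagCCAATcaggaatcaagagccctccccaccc
Kdm5b: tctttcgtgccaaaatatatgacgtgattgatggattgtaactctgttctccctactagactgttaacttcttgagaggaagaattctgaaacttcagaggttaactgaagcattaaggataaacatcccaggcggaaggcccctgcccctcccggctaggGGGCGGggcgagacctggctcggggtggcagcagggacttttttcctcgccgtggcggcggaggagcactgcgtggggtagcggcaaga

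The Dnmt3a window held 38 CpG dinucleotides and 5 copies of GGGCGG, and the Tet2 window held 51 CpG dinucleotides and 4 copies of the 22-base stretch CACGGCCCCGGGTCCCGCCGCG. The Uhrf1 window held 10 CpG dinucleotides, the Kdm5b window 13, the Setd7 window 17 and the Ehmt1 window 26. RefSeq promoters were matched for 33 of the 46 genes. Ash1l, Kdm2a, Kdm3b, Kdm4b, Kdm5a, Kdm6b, Kmt2e, Nsd1, Nsd2, Nsd3, Prdm2, Setd1b and Smyd3 were not among them. Over the 33, the median was 21 CpG dinucleotides per window, against 17 over the 9002 tested genes with a promoter and 6 over all 27025 promoters. At least 10 were found in 90.9% of the members, 78.1% of tested genes and 38.2% of all promoters.

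Motifs were searched on both strands. GGGCGG was present in 24 of the 33 members (72.7%), 62% of tested genes and 33% of all promoters. CCAAT was present in 12 members (36.4%), 37.1% of tested genes and 34.5% of all promoters. CCGGAAG was found in 3 members (9.09%; 15.1% of tested genes, 7.07% of all promoters), CACGTG in 2 (6.06%; 8.89% and 6.04%) and TGANTCA in 2 (6.06%; 3.99% and 6.85%). TATAAA was in none of the 33 windows, against 5.95% of tested genes and 13% of all promoters. Relative to all promoters the members were rich in CpG and in GC boxes, much as tested genes were.

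Of the 46 genes, 43 reached 1 RPKM in at least 3 of the 9 libraries and were tested. The other 3 were Kdm7a, Dnmt3b and Tet1. Differences are in log2(RPKM + 0.5), a scale on which changes of weakly expressed genes come out too small. Calls were made where limma gave an adjusted p under 0.05 (Benjamini-Hochberg over all 12568 tested genes). In clone 1, 10 members rose and 14 fell against parental cells, while 72.4% of all tested genes were called (39.8% higher, 32.6% lower). In clone 19, 8 rose and 17 fell, against 69% of all tested genes (36.7% higher, 32.3% lower). The members' called rises made up a smaller share than those of all tested genes in both clones. Their called falls made up the same share in clone 1 and a larger one in clone 19. These differences in share were not tested.

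The changes were small. The median absolute log2 difference of the members was 0.16 in clone 1 and 0.13 in clone 19, against 0.23 and 0.20 over all tested genes, and the median signed difference was -0.03 in each clone. Members called higher in both clones numbered 6 (30.7% of all tested genes), and 11 were called lower in both (25.8%). Kdm5b was called in opposite directions (1.93%), 13 members were called in 1 clone only (24.6%) and 12 in neither (17%). Differences of at least 0.4 on the log2 scale were called for 3 members above and 3 below in clone 1 (25.9% of all tested genes in either direction), 3 above and 1 below in clone 19 (22.8%), and 1 between the clones (4.74%). The 6 that rose in both clones were Setd7, Prdm2, Kdm5c, Kdm6a, Dnmt3a and Tet2. Between the clones, 7 members were higher and 6 lower in clone 19, with 43% of all tested genes called (18.5% higher, 24.5% lower). The clone 1 libraries lay apart from all parental ones for 12 members above (41.4% of all tested genes) and 14 below (33.7%), and the clone 19 libraries for 9 above (38.7%) and 20 below (34.8%).

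**Figure D1:**
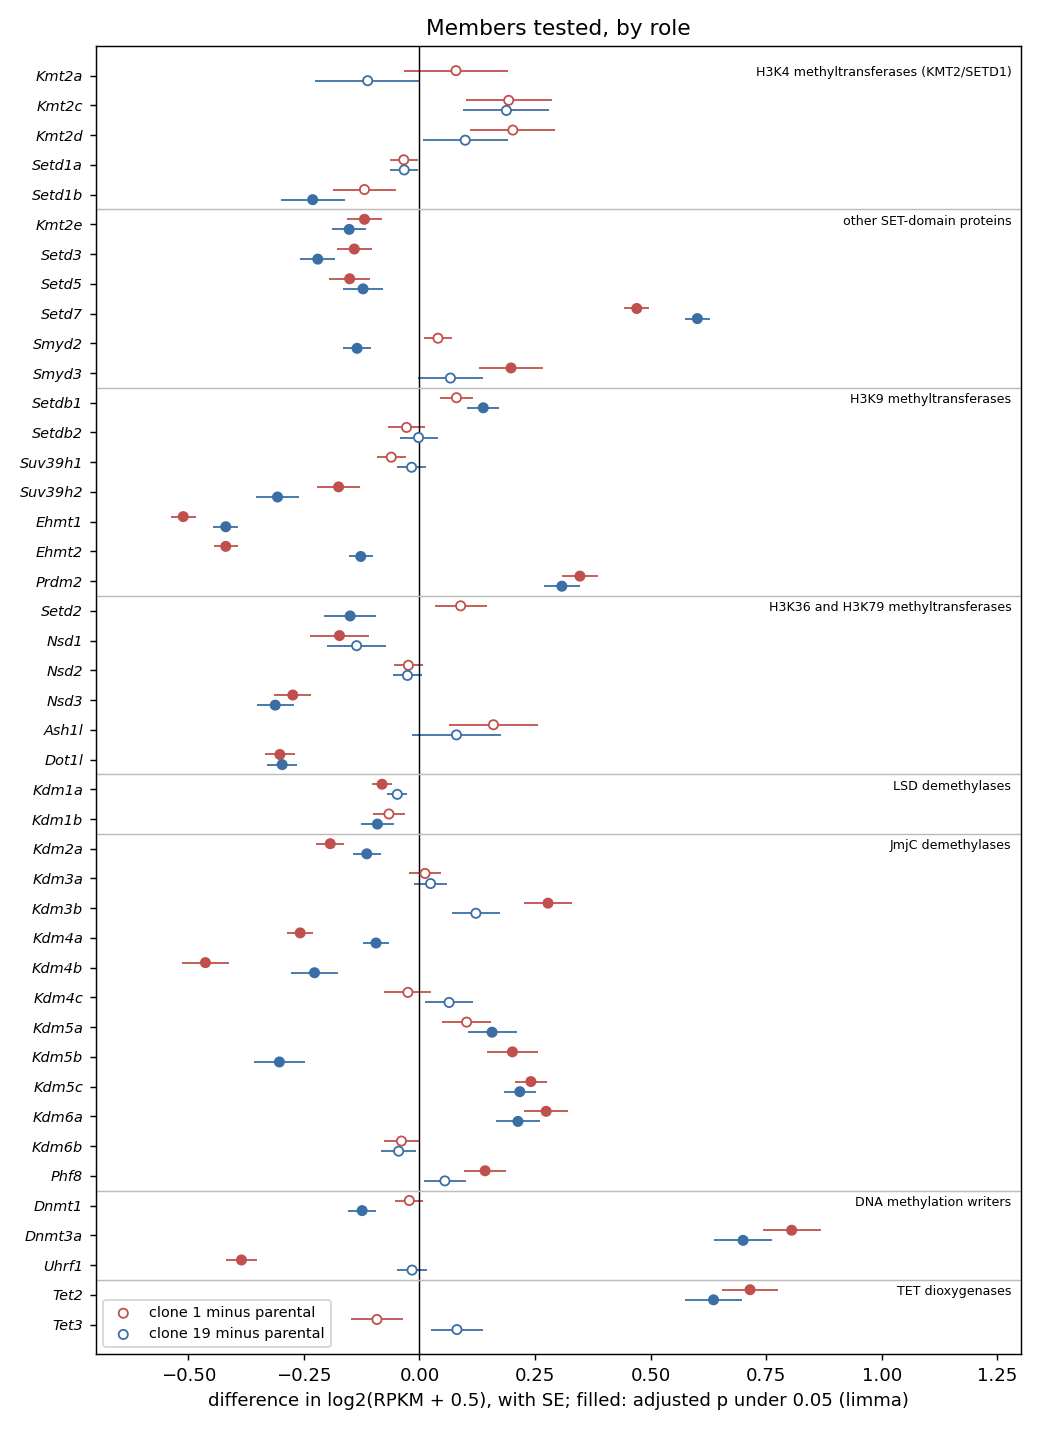
Difference in log2(RPKM + 0.5) from parental cells for the 43 tested members, grouped by role (x axis), with the standard error as bars; red is clone 1, blue is clone 19, and filled points had an adjusted p under 0.05 (limma). Dnmt3a, Tet2 and Setd7 lie farthest right in both clones, Ehmt1 farthest left, and the Kdm5b points fall on opposite sides of 0.

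Most members were expressed at a moderate level. In parental cells Dnmt1 was highest with 53.2 RPKM, followed by Smyd2 (38.4), Ehmt2 (37.6), Uhrf1 (35.1), Kdm1a (33.9) and Suv39h1 (33.5). Uhrf1, with an SD of 1.47, was not separated from Kdm1a (SD 0.461), nor Kdm1a from Suv39h1 (SD 0.305). Exons of Smyd2 share 39.2% of their bases with another gene and those of Setd1a 53.7%, and the strand setting of the counting is not given in the sources used here, so the levels of these 2 are uncertain. Kmt2e (13.3%) and Suv39h1 (11.1%) overlap less. Where a gene is given below by 3 means, they are those of parental cells, clone 1 and clone 19 in that order. The SD over 3 libraries had a median of 2.63%, 3.77% and 2.77% of the mean over the tested members in the 3 groups, and was at most 11.4% (Smyd3), 22.6% (Kmt2a) and 6.8% (Kdm3b). Over the genes outside the list that are named below, it was at most 22% (Cdh1). Summed over the 46 genes, RPKM ran from 584.5 to 599.1 in parental libraries, 558.3 to 589.4 in clone 1 and 575.7 to 582.9 in clone 19. Clone 1 overlapped the parental range and clone 19 lay just below it.

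Among the enzymes that place CpG methylation afresh, Dnmt3a rose in both clones. Dnmt3a held 2.37, 2.504 and 2.17 RPKM in parental libraries, 4.73, 4.29 and 4.42 in clone 1, and 3.84, 4.19 and 4.36 in clone 19. All 6 knockout libraries were above all 3 parental ones, and the clones overlapped each other. The mean ratio to parental cells was 1.91 in clone 1 and 1.76 in clone 19. The log2 differences were 0.81 ± 0.06 (SE) and 0.70 ± 0.06, with limma adjusted p = 6e-07 and 2.2e-06. The clones did not differ by the test (-0.11, limma adjusted p = 0.2). Dnmt3b, the related enzyme, read 0.827, 0.811 and 0.790 RPKM in parental cells, 0.936, 0.921 and 0.824 in clone 1, and 0.954, 1.09 and 0.811 in clone 19. Its groups overlapped and it was below the filter.

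Dnmt1, the maintenance enzyme, was nearly level. Its parental libraries held 53.2, 54.7 and 51.7 RPKM, those of clone 1 54.8, 51.0 and 51.4, and those of clone 19 48.4, 48.9 and 49.0. The clone 19 libraries lay below the other 6, whereas clone 1 and parental cells overlapped. Dnmt1 was lower in clone 19 by 0.12 on the log2 scale (value -0.12 ± 0.03, limma adjusted p = 0.0038) and differed from parental cells by -0.02 in clone 1 (adjusted p = 0.54, limma). The clone 19 call was lost when the median change of the 50 nearest tested genes was subtracted (-0.01, adjusted p = 0.8, limma). Under quantile normalization the clone 1 value was -0.09 and passed the test (limma adjusted p = 0.02).

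Uhrf1, which brings DNMT1 to newly replicated DNA, fell in clone 1. It read 35.5, 36.3 and 33.4 RPKM in parental cells, 27.6, 26.6 and 25.98 in clone 1, and 34.2, 34.8 and 35.0 in clone 19. Clone 1 lay below every other library, and clone 19 fell inside the parental range. The log2 difference was -0.385 ± 0.03 in clone 1 (limma adjusted p = 1.2e-06) and -0.02 in clone 19 (limma adjusted p = 0.68), and the clones differed by 0.37 (limma adjusted p = 1.5e-05). The 50 tested genes nearest to Uhrf1 on chromosome 17 had a median of -0.27 in clone 1 and -0.14 in clone 19. With that median subtracted, Uhrf1 was at -0.12 in clone 1 (limma adjusted p = 0.0074) and 0.12 in clone 19 (limma adjusted p = 0.0081), so that the clone 19 value changed sign and passed the test. The difference between the clones remained at 0.24 (limma adjusted p = 0.00033).

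Of the 3 TET genes, Tet2 rose in both clones, Tet3 was called in neither against parental cells, and Tet1 was not tested. Tet2 read 1.06, 0.964 and 1.10 RPKM in parental libraries, 2.11, 1.94 and 2.04 in clone 1, and 1.88, 1.89 and 1.92 in clone 19. Every knockout library was above every parental one, with ratios of the means of 1.95 and 1.82. The log2 differences were 0.71 ± 0.06 and 0.64 ± 0.06 (limma adjusted p = 1.2e-06 and 3.6e-06). Tet2 reached the filter through the knockout libraries, since only 2 of its parental values were at least 1 RPKM. The filter only selects genes, so leaving it out cannot change these differences. The median of its 50 nearest tested genes on chromosome 3 was 0.29 in clone 1 and 0.27 in clone 19, and with these subtracted Tet2 remained higher by 0.42 and 0.37 (limma adjusted p = 1e-04 and 0.00032).

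Tet3 was the most abundant of the family at 7.71, 7.75 and 7.22 RPKM in parental libraries. It read 7.53, 6.48 and 7.20 in clone 1 and 8.15, 7.61 and 8.31 in clone 19. Each clone overlapped parental cells and neither was called (-0.09 and 0.08, limma adjusted p = 0.17 and 0.22). The clones differed from each other by 0.17 (limma adjusted p = 0.03), a call that ended without clone 1 replicate 2 (0.12, limma adjusted p = 0.1), without clone 19 replicate 1 or 3 (adjusted p = 0.086 and 0.096, limma) or without the low-value filter (adjusted p = 0.062, limma). Tet1 was at the edge of detection, with 0.0209, 0.0226 and 0.0236 RPKM in parental libraries, 0.00611, 0.00652 and 0.0113 in clone 1, and 0.0121, 0.0106 and 0.00859 in clone 19. Those values correspond to an estimated 2 to 13 reads per library, and Tet1 was not tested.

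**Figure D2:**
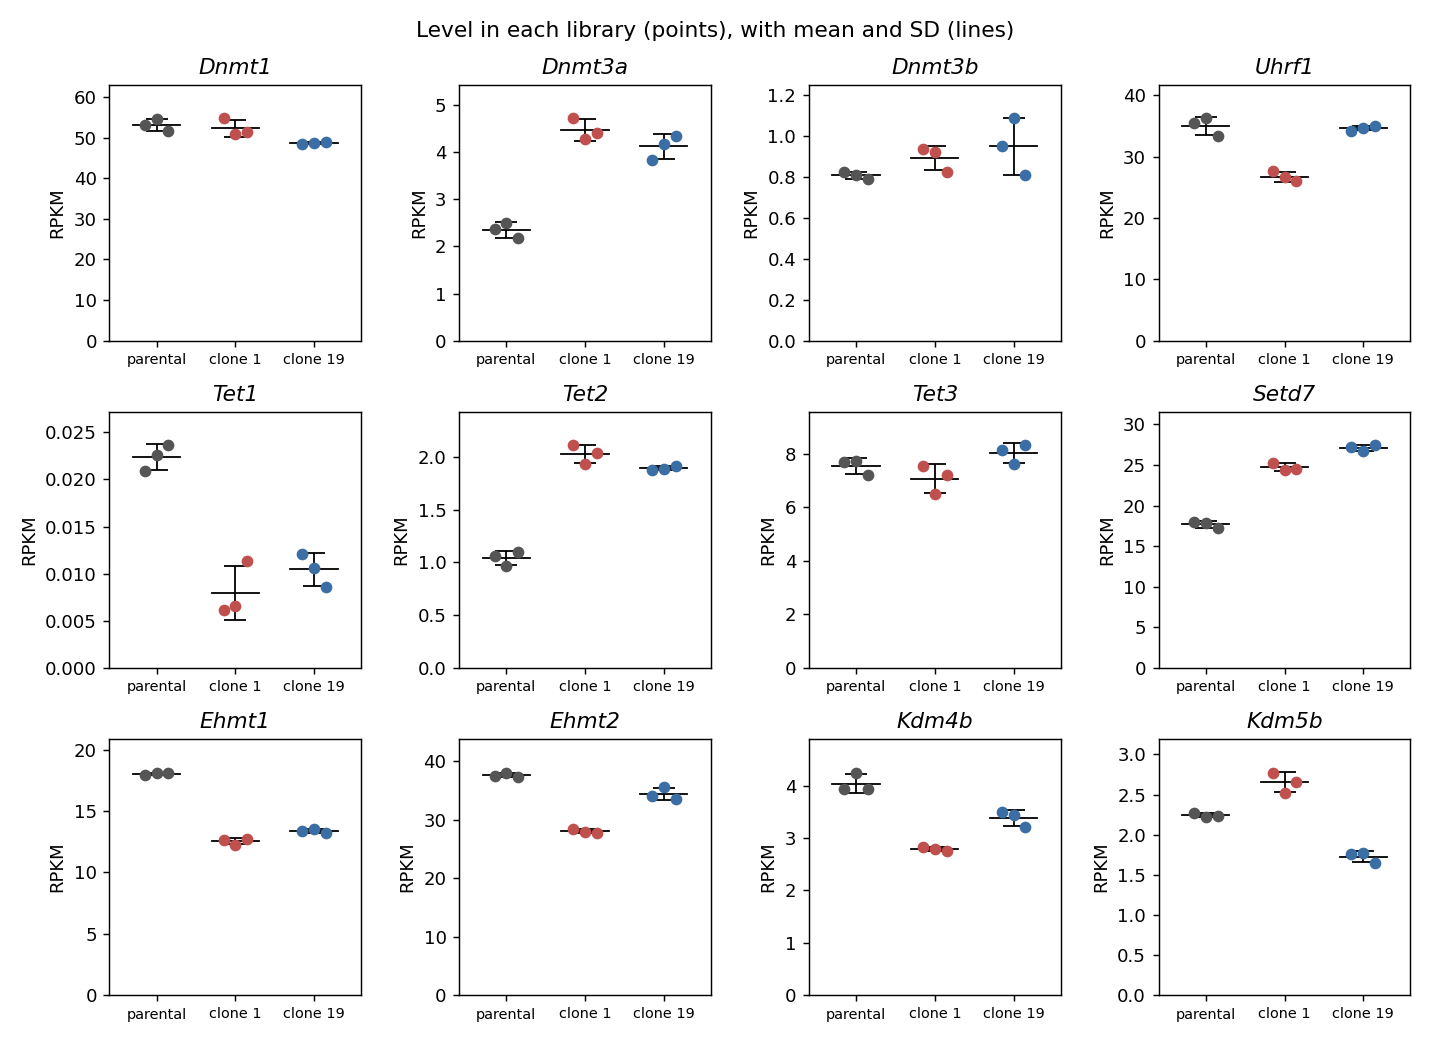
RPKM (y axis, from 0, scaled per gene) in each of the 9 libraries for the 7 DNA methylation genes and for Setd7, Ehmt1, Ehmt2, Kdm4b and Kdm5b; points are libraries, and black lines give the mean and SD of 3. The 6 knockout points of Dnmt3a, Tet2 and Setd7 lie above the parental ones, those of Ehmt1, Ehmt2 and Kdm4b lie below, and only the clone 1 points of Uhrf1 do.

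Among the 7 lysine 9 methyltransferases, Prdm2 rose in both clones, Setdb1 rose in clone 19, and Ehmt1, Ehmt2 and Suv39h2 fell in both. Of all tested genes, 39.8% rose and 32.6% fell in clone 1, and 36.7% and 32.3% in clone 19. Ehmt1 (GLP), which forms a heterodimer with EHMT2 (G9a) that methylates lysine 9 in euchromatin, held 17.9, 18.1 and 18.1 RPKM in parental cells, 12.6, 12.2 and 12.7 in clone 1, and 13.4, 13.5 and 13.2 in clone 19. The 3 groups did not overlap. The log2 differences from parental cells were -0.51 ± 0.03 and -0.42 ± 0.03 (limma adjusted p = 2.6e-08 and 1.4e-07). Its 50 nearest tested genes on chromosome 2 had medians of -0.28 and -0.29, and the subtracted differences were -0.23 and -0.13 (limma adjusted p = 3.6e-05 and 0.0031). The clones differed by 0.09 (limma adjusted p = 0.019), a call that was lost without clone 1 replicate 2 (adjusted p = 0.065, limma), without clone 19 replicate 2 (adjusted p = 0.057, limma) and with only those groups in the fit (adjusted p = 0.054, limma).

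Ehmt2, its partner, held 37.4, 38.1 and 37.4 RPKM in parental libraries, 28.4, 27.9 and 27.7 in clone 1, and 34.1, 35.6 and 33.6 in clone 19. Again the groups did not overlap, with clone 19 between the others. The log2 differences were -0.42 ± 0.03 in clone 1 and -0.13 ± 0.03 in clone 19 (limma adjusted p = 8.6e-08 and 0.0012), and the clones differed by 0.29 (limma adjusted p = 1.4e-05). Ehmt2 lies among tested genes of chromosome 17 whose median was -0.43 in clone 1 and -0.18 in clone 19. With these subtracted its differences were 0.01 and 0.05 and no longer called (limma adjusted p = 0.73 and 0.17), and the difference between the clones was 0.04 (limma adjusted p = 0.38). The fall of Ehmt2 was thus no larger than that of its neighbours.

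Of the other H3 lysine 9 enzymes, Prdm2, also known as RIZ, averaged 5.08 RPKM in parental cells, 6.60 in clone 1 and 6.41 in clone 19, with differences of 0.35 and 0.31 (limma adjusted p = 1.1e-05 and 3.4e-05); both calls ended with the neighbours subtracted (0.06 and 0.07, limma adjusted p = 0.21 and 0.11). Suv39h2, a heterochromatin enzyme, averaged 5.07, 4.43 and 4.004 RPKM and fell in clone 1 (-0.17, limma adjusted p = 0.005) and in clone 19 (-0.31, limma adjusted p = 0.00011). Setdb1, which acts with the KAP1 corepressor, averaged 10.9, 11.6 and 12.1 RPKM and rose in clone 19 by 0.14 (limma adjusted p = 0.0044). With neighbours subtracted Setdb1 was lower than in parental cells in clone 1 (-0.12, limma adjusted p = 0.0099) and clone 19 (limma adjusted p = 0.0064). Suv39h1 (33.5, 32.1 and 33.1 RPKM) and Setdb2 (8.97, 8.78 and 8.95 RPKM) were called in neither clone. With the neighbours subtracted, Suv39h1 was lower in both (-0.11 and -0.10, limma adjusted p = 0.0079 and 0.015) and Setdb2 in clone 1 (-0.17, limma adjusted p = 0.0041).

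The 5 lysine 4 methyltransferases of the KMT2 and SETD1 type gave 1 call in all. Of all tested genes, 72.4% were called in clone 1 and 69% in clone 19. Setd1b, a catalytic subunit of a COMPASS complex, averaged 3.86 ± 0.102 RPKM (SD, n = 3) in parental cells, 3.53 ± 0.403 in clone 1 and 3.22 ± 0.0815 in clone 19, and fell in clone 19 by 0.23 (limma adjusted p = 0.011). That call ended with the neighbours subtracted (-0.16, limma adjusted p = 0.086). Setd1a averaged 14.8, 14.5 and 14.5 RPKM and was not called. Kmt2a (MLL), Kmt2c and Kmt2d averaged 4.21, 1.90 and 3.55 RPKM in parental cells, and their SDs in clone 1 (1.03, 0.405 and 0.723) were above those in the other groups. With the neighbours subtracted, Kmt2c was higher in both clones (0.25 and 0.28, limma adjusted p = 0.039 and 0.023) and Kmt2d in clone 1 (0.23, limma adjusted p = 0.044). Kmt2a held 5.64, 3.61 and 4.38 RPKM in the 3 clone 1 libraries, which spread around the parental values of 4.37, 4.23 and 4.03.

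Long transcripts as a set deviated in the same direction within clone 1, but by less than Kmt2a did. Clone 1 replicate 1 was the highest of the 3 clone 1 libraries for 31 of the 43 tested members, a count not made over all tested genes. Over the 740 tested genes with at least 8000 exonic bases, its median deviation from the group mean was 0.067 on the log2 scale, against -0.067 in clone 1 replicate 2 and at most 0.032 in size elsewhere; over the 17 such members it was 0.087 and -0.091. Its part in the members' values was not tested. Leaving out clone 1 replicate 2 raised the number of members called higher in clone 1 from 10 to 15, while over all tested genes that share went from 39.8% to 38.6%. The rise came with Kmt2a (0.22, limma adjusted p = 0.047), Kmt2c (0.29), Kmt2d (0.29), Setd2 (0.15), Ash1l (0.27) and Kdm5a (0.15) passing the test, these 5 at a limma adjusted p = 0.011 to 0.03.

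**Figure D3:**
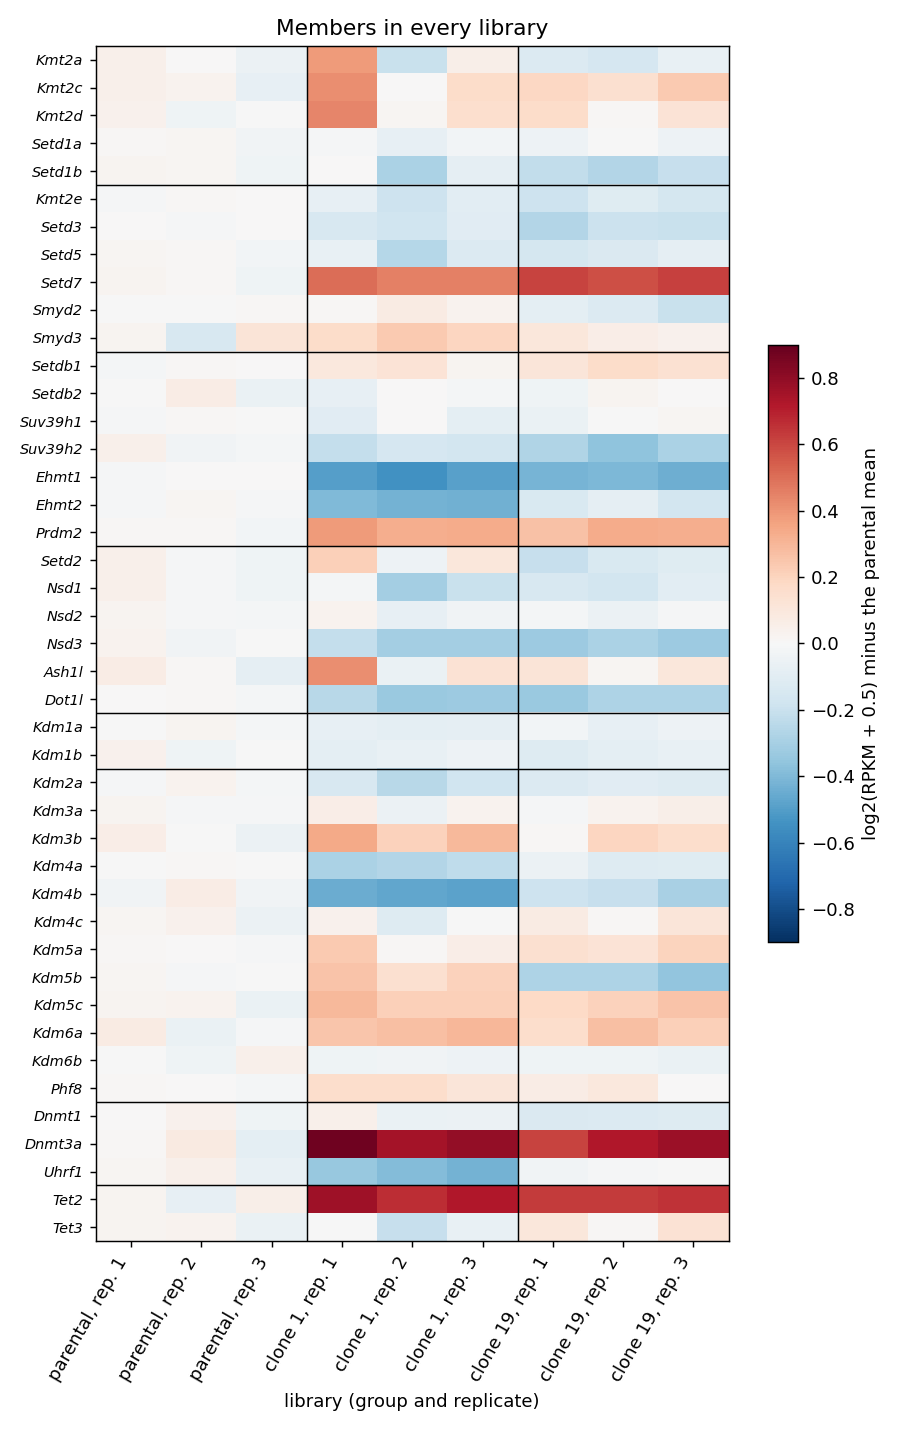
Each tested member (rows, by role) in each library (columns), coloured by log2(RPKM + 0.5) minus the parental mean, red above and blue below. The Dnmt3a, Tet2 and Setd7 rows are red in all 6 knockout libraries, and the Kmt2a, Kmt2c, Kmt2d and Ash1l rows are redder in clone 1 replicate 1 than in clone 1 replicates 2 and 3.

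Of the other SET-domain proteins, Setd7 gave the largest rise. SETD7 methylates lysine 4 of histone H3 in vitro and many non-histone proteins. Setd7 held 18.0, 17.9 and 17.2 RPKM in parental cells, 25.3, 24.4 and 24.5 in clone 1, and 27.2, 26.7 and 27.4 in clone 19. The 3 groups did not overlap, with clone 19 highest. The ratio of the means was 1.40 in clone 1 and 1.53 in clone 19, and the log2 differences were 0.47 ± 0.03 and 0.60 ± 0.03 (limma adjusted p = 4.5e-08 and 7.1e-09). The clones differed by 0.13 (limma adjusted p = 0.0028). The 50 nearest tested genes on chromosome 3 had medians of 0.31 and 0.37, and with these subtracted Setd7 was still higher by 0.16 and 0.23 (limma adjusted p = 0.00023 and 1.2e-05).

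Setd3, the actin histidine methyltransferase, averaged 7.29, 6.57 and 6.19 RPKM and fell in both clones (-0.14 and -0.22, limma adjusted p = 0.0065 and 0.00038). Setd5 (25.1, 22.6 and 23.1 RPKM) and Kmt2e (12.5, 11.5 and 11.2 RPKM), which carry SET domains of little or debated activity, also fell in both, by 0.15 or less on the log2 scale. The Setd5 call in clone 19 ended without parental replicate 1 or 2 or clone 19 replicate 1 or 2 (limma adjusted p = 0.078, 0.067, 0.091 and 0.065), whereas with the neighbours subtracted Setd5 was lower by more in both clones (-0.33 and -0.27, limma adjusted p = 8.7e-05 and 0.00038). The Kmt2e call in clone 1 ended without clone 1 replicate 2 (limma adjusted p = 0.052), and those in both clones ended with the neighbours subtracted (limma adjusted p = 0.32 and 0.28). Smyd3 averaged 1.999, 2.36 and 2.11 RPKM and rose in clone 1 by 0.20 (limma adjusted p = 0.024), a call lost without parental replicate 2, clone 1 replicate 2 or clone 1 replicate 3 (limma adjusted p = 0.1, 0.069 and 0.053) and with the neighbours subtracted (0.08, limma adjusted p = 0.36). Smyd2, a lysine 36 and p53 methyltransferase, averaged 38.4, 39.5 and 34.9 RPKM and was lower in clone 19 (limma adjusted p = 0.0022). In clone 1 Smyd2 was not called at 0.04, but with the neighbours subtracted it was lower by 0.16 (value -0.16, limma adjusted p = 0.0023).

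None of the 6 lysine 36 and lysine 79 methyltransferases rose (39.8% of all tested genes in clone 1, 36.7% in clone 19). In each clone 3 fell (32.6% and 32.3%). Nsd3 averaged 7.88, 6.43 and 6.25 RPKM and fell in both clones (-0.27 and -0.31, limma adjusted p = 8.9e-05 and 3.6e-05; with the neighbours subtracted, -0.11 and -0.14, limma adjusted p = 0.046 and 0.014). Dot1l, the lysine 79 enzyme that works with elongation factors, averaged 15.5, 12.5 and 12.5 RPKM and fell by 0.30 in each clone (limma adjusted p = 8.7e-06 and 1.1e-05). On chromosome 10 the 50 tested genes nearest to Dot1l had medians of -0.40 and -0.34. Relative to these Dot1l was at 0.10 (limma adjusted p = 0.038) and 0.04 (limma adjusted p = 0.36), so its direction turned. Nsd1 was called lower in clone 1 (-0.17, limma adjusted p = 0.028) and Setd2, the trimethyl lysine 36 enzyme, in clone 19 (-0.15, limma adjusted p = 0.034). Both calls ended when parental replicate 1 or 2 was left out (Nsd1 limma adjusted p = 0.092 and 0.057, Setd2 0.11 and 0.063), that of Nsd1 also without clone 1 replicate 2 or 3 (0.11 and 0.075), and that of Setd2 also without clone 19 replicate 1 or 2 (0.11 and 0.061). Both ended with the neighbours subtracted (limma adjusted p = 0.15 and 0.34). Nsd2 (17.6, 17.3 and 17.2 RPKM) and Ash1l (7.46, 8.47 and 7.90 RPKM) were not called.

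The flavin-dependent demethylases moved little. Kdm1a (LSD1) averaged 33.9 ± 0.461, 32.0 ± 0.110 and 32.8 ± 0.548 RPKM (SD, n = 3) and fell by 0.08 in clone 1 (limma adjusted p = 0.0064); in clone 19 the difference was -0.05 (limma adjusted p = 0.076). With the neighbours subtracted, Kdm1a was at -0.17 and -0.21 (limma adjusted p = 0.00014 and 3.2e-05). Kdm1b (LSD2) averaged 8.46, 8.06 and 7.92 RPKM and was called lower in clone 19 by a narrow margin (-0.09, limma adjusted p = 0.04). Leaving out any of parental replicate 1 or 3 or clone 19 replicate 1 or 2 ended that call (limma adjusted p = 0.15, 0.079, 0.11 and 0.075), whereas with the neighbours subtracted Kdm1b was lower in both clones (-0.18 and -0.21, limma adjusted p = 0.0011 and 0.00044).

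Of 13 JmjC demethylases, 12 were tested. In clone 1, 5 rose and 3 fell, and in clone 19, 3 rose and 4 fell. Of all tested genes, 39.8% rose and 32.6% fell in clone 1, and 36.7% and 32.3% in clone 19. Kdm5b and its relatives erase the mark on lysine 4. Kdm5b held 2.27, 2.22 and 2.23 RPKM in parental libraries, 2.77, 2.52 and 2.66 in clone 1, and 1.76, 1.76 and 1.64 in clone 19. The groups did not overlap, and the clones lay on opposite sides of parental cells. The log2 differences were 0.20 ± 0.06 in clone 1 (limma adjusted p = 0.007) and -0.30 ± 0.06 in clone 19 (limma adjusted p = 0.00052), and the clones differed by 0.50 on the log2 scale (value -0.50, limma adjusted p = 5.6e-05). The clone 1 call ended with the neighbours on chromosome 1 subtracted (0.10, limma adjusted p = 0.13), while those of clone 19 against parental cells (-0.23, limma adjusted p = 0.0039) and against clone 1 (-0.33, limma adjusted p = 0.0012) remained.

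Its X-linked relative Kdm5c averaged 18.9, 22.4 and 22.03 RPKM and rose in both clones (0.24 and 0.22, limma adjusted p = 8.5e-05 and 0.00021). With the neighbours subtracted these differences were 0.10 and 0.12, still called (limma adjusted p = 0.033 and 0.012). Kdm6a (UTX), an eraser of lysine 27 methylation that is also X-linked, averaged 5.77, 7.07 and 6.77 RPKM and rose by 0.27 and 0.21 (limma adjusted p = 0.0003 and 0.0019). Kdm6b, its relative, was not called at 5.76, 5.59 and 5.57 RPKM, but was lower than its neighbours by 0.23 and 0.24 (values -0.23 and -0.24, limma adjusted p = 0.00056 and 0.00037). Kdm5a (9.28, 10.02 and 10.4 RPKM) rose in clone 19 (0.16, limma adjusted p = 0.022), a call that ended without parental replicate 3 (adjusted p = 0.058, limma) or clone 19 replicate 3 (adjusted p = 0.076, limma) or with the neighbours subtracted (adjusted p = 0.08, limma).

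Kdm4b, which erases the lysine 9 mark, held 3.94, 4.25 and 3.94 RPKM in parental cells, 2.84, 2.79 and 2.76 in clone 1, and 3.49, 3.44 and 3.22 in clone 19. The groups did not overlap and clone 19 was intermediate. The log2 differences were -0.46 ± 0.05 and -0.23 ± 0.05 (limma adjusted p = 9.3e-06 and 0.0022), and the clones differed by 0.24 (limma adjusted p = 0.0037). With its chromosome 17 neighbours subtracted (medians -0.26 and -0.13), Kdm4b was still lower in clone 1 (-0.20, limma adjusted p = 0.0037) but not called in clone 19 (-0.10, limma adjusted p = 0.098) or between the clones (0.10, limma adjusted p = 0.14). Kdm4a averaged 22.3, 18.6 and 20.9 RPKM and fell in both clones (-0.26 and -0.09, limma adjusted p = 8.4e-06 and 0.012), the clone 19 call ending with the neighbours subtracted (adjusted p = 0.065, limma). Kdm4c was not called at 5.87, 5.77 and 6.16 RPKM.

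Kdm2a, a lysine 36 demethylase that binds unmethylated CpG, averaged 21.6, 18.8 and 19.9 RPKM and fell in both clones (-0.19 and -0.11, limma adjusted p = 0.00016 and 0.0062); with its neighbours subtracted the clone 19 value was -0.21 (limma adjusted p = 0.00037). Kdm3b (12.2, 14.9 and 13.3 RPKM) rose in clone 1 by 0.28 (limma adjusted p = 0.00061), and by 0.14 with the neighbours subtracted (limma adjusted p = 0.026). Phf8, another X-linked demethylase, averaged 3.23, 3.62 and 3.38 RPKM and rose in clone 1 by 0.14 (limma adjusted p = 0.017), a call lost without parental replicate 3 (adjusted p = 0.052, limma) and with the neighbours subtracted (adjusted p = 0.45, limma). Kdm3a was level at 13.6, 13.7 and 13.8 RPKM and was called in neither clone, although it was lower than its neighbours in clone 1 (-0.10, limma adjusted p = 0.033). Kdm7a was below the filter, with 0.343, 0.322 and 0.294 RPKM in parental cells, 0.158, 0.199 and 0.270 in clone 1, and 0.289, 0.251 and 0.300 in clone 19.

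The members were also compared with the genes beside them. Each tested member was set against the median difference of its 50 nearest tested genes in RefSeq gene order. In clone 1, 33 of 43 members had the sign of their neighbours' median, and in clone 19 it was 30 of 43. The same share over all tested genes was not computed, so these counts do not set the members apart. The 3 members on chromosome 17, Ehmt2, Kdm4b and Uhrf1, lay among neighbours with a median of -0.27 in clone 1 and -0.14 in clone 19. After subtraction, 9 members were called higher and 17 lower in clone 1 (33.3% and 33% of all tested genes), 7 and 13 in clone 19 (31.7% and 31.5%), and 4 and 1 in clone 19 against clone 1 (16.4% and 16.4%). Dnmt3a on chromosome 12 had neighbours near 0 (0.06 in each clone) and kept differences of 0.74 and 0.64. The cause of these regional medians was not tested.

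**Figure D4:**
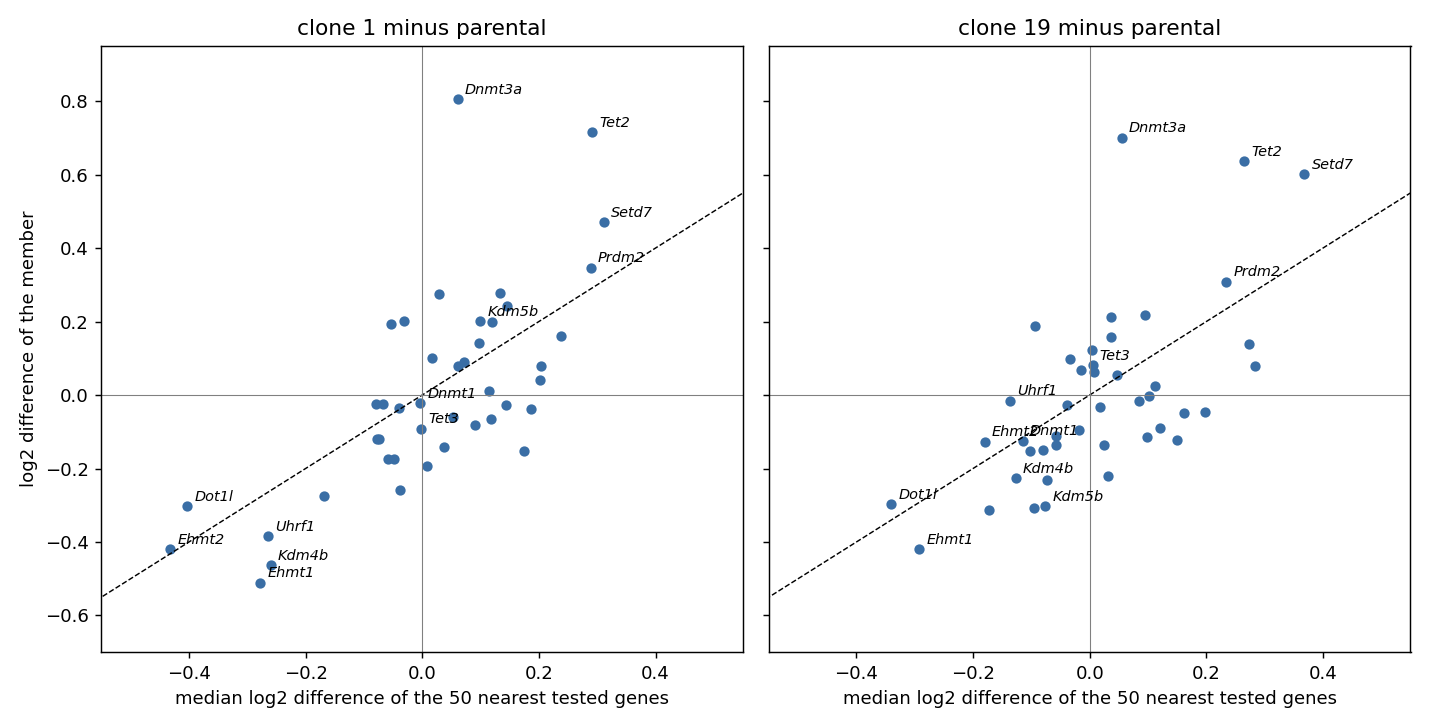
Log2 difference of each tested member from parental cells (y axis) against the median difference of its 50 nearest tested genes (x axis), in clone 1 (left) and clone 19 (right); the dashed line marks equal values. Dnmt3a and Tet2 lie well above the line in both panels, whereas Ehmt2 and Dot1l lie at or above it among the lowest neighbour medians.

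The proteins that work with these enzymes were looked at as lists. Each count is to be read beside all tested genes, of which 39.8% rose and 32.6% fell in clone 1. In clone 19 these shares were 36.7% and 32.3%, and differences in share were not tested. Unless said otherwise, the genes named were picked for the largest changes in the same direction in both clones. Of 12 tested subunits of KMT2 and SETD1 complexes, clone 1 showed 2 rises and 5 falls and clone 19 3 rises and 5 falls; their median log2 differences were -0.01 and -0.09, against 0.03 (clone 1) and 0.02 (clone 19) over all tested genes. Wdr5, the scaffold shared by these complexes, averaged 50.9 ± 1.24, 37.1 ± 0.93 and 38.0 ± 0.939 RPKM and fell in both clones (-0.45 and -0.42, limma adjusted p = 9.6e-08 and 2e-07). Subtracting its neighbours reduced these to -0.14 (limma adjusted p = 0.00089) and -0.11 (limma adjusted p = 0.0054). Cxxc1, the CpG-binding subunit of the SETD1 complexes, rose (22.7, 29.7 and 26.7 RPKM, 0.38 and 0.23, limma adjusted p = 2.4e-06 and 0.00015), the clone 1 difference going to 0.16 with the neighbours subtracted (limma adjusted p = 0.00088). Psip1, a reader of lysine 36 methylation, fell (46.8, 37.6 and 40.5 RPKM, -0.31 and -0.21, limma adjusted p = 3.8e-07 and 1.3e-05).

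Among 12 partners and readers of lysine 9 methylation, 4 rose and 5 fell in each clone. Tasor, the scaffold of the HUSH silencing complex, averaged 4.47, 3.28 and 3.73 RPKM and fell by 0.40 and 0.23 (limma adjusted p = 1.3e-05 and 0.00081). Atf7ip, the SETDB1 cofactor, averaged 8.99, 6.99 and 7.25 RPKM and fell by 0.34 and 0.29. Morc2a, an ATPase that HUSH recruits, averaged 23.5, 36.3 and 33.1 RPKM and rose by 0.61 and 0.48 (limma adjusted p = 2e-08 and 1.5e-07), of which 0.10 and 0.13 remained after its neighbours were subtracted (limma adjusted p = 0.018 and 0.0042). Members of the same silencing pathway therefore went in both directions.

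For the partners of DOT1L and readers of lysine 36, clone 1 showed 3 rises and 3 falls among 9 and clone 19 2 rises and 5 falls. Aff4, a scaffold of the super elongation complex, averaged 27.1, 50.8 and 42.3 RPKM and rose by 0.89 and 0.64 (limma adjusted p = 6.6e-08 and 1.2e-06); its neighbour-subtracted differences were 0.44 and 0.29. The YEATS proteins Mllt1 (30.01, 20.9 and 23.2 RPKM) and Mllt3 (2.40, 1.33 and 1.153 RPKM), which join that complex or DOT1L, fell in both clones. For Mllt1 the differences were -0.51 and -0.365 (limma adjusted p = 2.6e-08 and 4.7e-07), of which -0.20 and -0.21 remained relative to its neighbours (limma adjusted p = 5.4e-05 and 4.2e-05). For Mllt3 the differences were -0.67 and -0.81 (limma adjusted p = 8.6e-05 and 2.1e-05), with neighbours near 0.

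The list of LSD1 and LSD2 partners had 3 of 11 higher and 6 lower in clone 1, and 3 higher and 7 lower in clone 19, with medians of -0.14 and -0.17. Phf21a, the reader of unmethylated lysine 4 in the CoREST complex, averaged 6.10, 3.86 and 3.70 RPKM and fell by 0.60 and 0.65 (limma adjusted p = 2.8e-07 and 1.5e-07; -0.32 and -0.36 with neighbours subtracted). Rcor3, a CoREST scaffold, rose from 4.17 RPKM to 6.28 and 6.01 (limma adjusted p = 4.6e-06 and 1.3e-05). Glyr1, the LSD2 cofactor, rose from 33.2 to 42.2 and 42.3 RPKM (0.34 and 0.345, and 0.12 and 0.11 with the neighbours subtracted, limma adjusted p = 0.003 and 0.008).

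Of 16 other genes for lysine methylation enzymes, 14 were tested, with 3 higher and 7 lower in clone 1, and 4 higher and 5 lower in clone 19. Smyd4 averaged 4.60 ± 0.0726, 9.21 ± 0.385 and 8.01 ± 0.262 RPKM and rose in both clones (0.93 and 0.74, limma adjusted p = 6.9e-09 and 4.6e-08). Kdm2b, which brings a Polycomb complex to CpG islands, fell from 6.14 to 5.08 and 4.98 RPKM, and Riox1 from 7.25 to 5.98 and 5.80 RPKM.

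Of the readers and removers of 5-methylcytosine, 13 were tested: clone 1 showed 3 rises and 5 falls, clone 19 2 rises and 3 falls. Mbd1, a methyl-CpG binding protein, rose from 15.1 to 24.2 and 23.0 RPKM (0.66 and 0.59, limma adjusted p = 2.9e-09 and 8e-09). Mbd3, of the NuRD complex, fell from 95.6 to 70.1 and 70.2 RPKM (-0.45 and -0.44, limma adjusted p = 3.5e-09 and 4.1e-09), and by 0.07 and 0.11 relative to its neighbours (limma adjusted p = 0.026 and 0.0016). Ogt, the glycosyltransferase that binds TET proteins, fell from 14.6 to 9.81 and 10.1 RPKM, while its neighbours were at 0.17 and 0.14.

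A list of 17 genes was drawn up around S-adenosylmethionine and 2-oxoglutarate, and not all of them supply these compounds. In this list clone 1 showed 7 rises and 6 falls and clone 19 7 rises and 8 falls. Shmt2, the mitochondrial serine hydroxymethyltransferase of the folate cycle, fell from 139 ± 1.53 to 73.5 ± 3.42 and 78.8 ± 1.10 RPKM (-0.92 and -0.82, limma adjusted p = 5.3e-10 and 1.4e-09). Its neighbours had medians of -0.36 and -0.33, and the subtracted differences were -0.555 and -0.49 (limma adjusted p = 1.2e-08 and 3.6e-08). Idh2, which makes 2-oxoglutarate in mitochondria, fell from 73.8 to 41.1 and 46.7 RPKM (-0.84 and -0.65), with neighbours near 0. Ahcyl1, a relative of the enzyme that clears S-adenosylhomocysteine, rose from 77.4 to 127 and 123 RPKM (0.71 and 0.67, and 0.43 and 0.36 with the neighbours subtracted, limma adjusted p = 2.5e-08 and 1.1e-07). The subunits of the synthetase that makes S-adenosylmethionine, named after their values were seen, differed between the clones. Mat2a, the catalytic subunit, averaged 88.1 ± 0.105, 76.8 ± 0.526 and 101 ± 1.41 RPKM, fell in clone 1 and rose in clone 19 (-0.20 and 0.20, limma adjusted p = 1.6e-06 in each). Mat2b, the regulatory subunit, averaged 59.3 ± 0.426, 66.0 ± 1.52 and 125 ± 7.83 RPKM and rose by 0.15 and 1.07 (limma adjusted p = 0.0038 and 1.3e-09). The clone 1 call of Mat2b ended under quantile normalization (limma adjusted p = 0.13) and with the neighbours subtracted (limma adjusted p = 0.51).

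**Figure D5:**
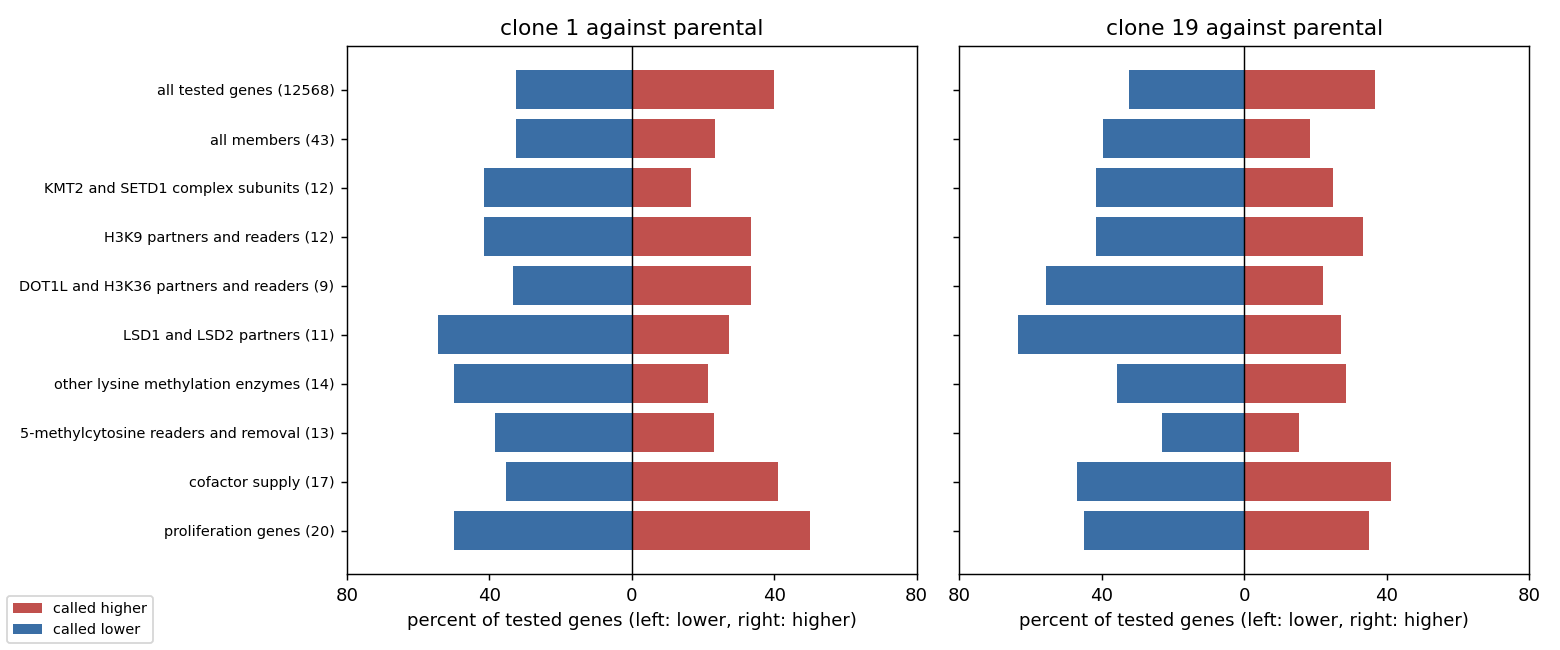
Percent of tested genes called lower (blue, to the left) and higher (red, to the right) in each clone against parental cells, for all 12568 tested genes, the members and the lists of their partners; the number tested is in brackets. The members' red bars (10 and 8 of 43 genes) are shorter than those of all tested genes (39.8% and 36.7%) in both panels.

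Germline genes listed as silenced by DNA methylation in somatic cells were mostly low. Of 20, 18 stayed below 1 RPKM in every library. The other 2 were expressed in parental cells and were called lower in both clones. Stag3, a meiotic cohesin subunit, fell from 11.2 ± 0.317 RPKM to 3.27 ± 0.239 and 5.53 ± 0.286 (-1.63 and -0.95, limma adjusted p = 7.6e-10 and 5.2e-08). Sycp3, of the synaptonemal complex, fell from 2.18 to 1.57 and 1.51 RPKM (-0.36 and -0.405, limma adjusted p = 0.014 and 0.0085). The Sycp3 calls ended with the neighbours subtracted (limma adjusted p = 0.3 and 0.38). Methylation of DNA or of histones was not measured in these libraries.

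Markers that could bear on the makeup of the cultures also moved. Because Dnmt1 and Uhrf1 follow the cell cycle, 20 proliferation genes were read beside them: rises and falls numbered 10 and 10 in clone 1, and 7 and 9 in clone 19, with medians of 0.01 and -0.05. Over all tested genes, 72.4% were called in clone 1 and 69% in clone 19. Rrm2 rose (119, 188 and 184 RPKM) while E2f1 (19.4, 12.1 and 14.7 RPKM) and Ccne1 (15.2, 10.05 and 8.85 RPKM) fell. The summed level of the 14 epithelial markers rose from 613.5 to 632.0 RPKM in parental libraries to 986.2 to 1036 in clone 1 and 968.7 to 975.5 in clone 19, nearly all of it keratin. The 10 mesenchymal markers summed to 2079 to 2142, 2016 to 2063 and 1770 to 1839 RPKM, with 4 rises and 5 falls in clone 1 and 3 and 6 in clone 19. Cdh1, the E-cadherin gene of epithelia, averaged 0.549 ± 0.087, 0.521 ± 0.115 and 1.25 ± 0.123 RPKM and rose in clone 19 (0.74, limma adjusted p = 7.2e-05). It was named after its values were seen. Cdh1 passed the filter through clone 19 alone, since every parental and clone 1 value was below 1 RPKM. In clone 1 it was at -0.04 (limma adjusted p = 0.74), and at 0.256 under quantile normalization (limma adjusted p = 0.041). Of the markers of other cell types, Tubb3, a neuronal tubulin, fell from 56.4 to 30.5 and 33.2 RPKM (limma adjusted p = 2.4e-10 and 6.9e-10). Kdr, an endothelial receptor, fell from 1.63 to 0.735 and 0.671 RPKM (limma adjusted p = 2.9e-06 and 1.5e-06), with both knockout means below the 1 RPKM of the filter. Cd68, the 1 immune marker tested, went the other way: it was called higher in clone 19 (0.37 in log2) and not called in clone 1 (0.22). The part of these markers in the members' changes was not tested. In bulk RNA, fewer cells of a type and less RNA per cell cannot be told apart.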

How the data were processed

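RNA-seq libraries of parental YAMC cells and of Cdk8 knockout clones 1 and 19, 3 each, were analysed from 1 table in which the authors deposited RPKM values per Entrez gene ID. Per the submitters' processing notes, GSNAP and DESeq were used with genome build NCBIM37. Not given in the sources used here are their roles and versions, the gene annotation, how reads were counted, and any use of size factors. IDs were named through RefSeq (24998) and GENCODE (16); 3045 had no name. Depth was estimated from the smallest steps between low values (1714 genes), so no count test was run.

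Values of log2(RPKM + 0.5) of the 12568 genes with at least 1 RPKM in at least 3 of 9 libraries were fitted with limma 3.58.1 in R 4.3.3, as 1 model of 3 group means with a mean-variance trend. The p-values were adjusted by Benjamini-Hochberg within each contrast over all tested genes, and genes were called under 0.05. The fit was tested on simulated data. Gene order, exon lengths and promoters came from mouse GRCm38 annotation, and gene coordinates of the 2 builds were not mixed.

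The members and lists were chosen with earlier results of these data known. Members named with every library's value were the 7 DNA methylation genes and those called with at least 0.4 (log2) in any contrast. Up to 3 genes were named per list, from those called in the same direction in both clones with the largest changes. These genes were thus concordant and large by selection, and do not stand for their lists. Mat2a, Mat2b and Cdh1 were added after their values were seen. Alternatives were pseudocounts of 0.1 and 1, quantile normalization, median-ratio scaling, a minimum of 3 RPKM or none, a fit without the trend or with array quality weights, a fit to the groups compared alone, a replicate block, each library left out, and neighbouring genes subtracted (per library, the median deviation over the 50 closest tested genes).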

Additional observations from a re-analysis of the deposited data

Results flagged for a closer look

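For 13 members the clones differed from each other by the test (limma adjusted p under 0.05, clone 19 minus clone 1, log2 scale). Those higher in clone 19 were Uhrf1 (0.369), Ehmt2 (0.292), Kdm4b (0.236), Tet3 (0.173), Kdm4a (0.165), Setd7 (0.131) and Ehmt1 (0.092). Those lower in clone 19 were Kdm5b (-0.504), Setd2 (-0.239), Smyd2 (-0.175), Kdm3b (-0.156), Suv39h2 (-0.132) and Dnmt1 (-0.102). Only Kdm5b was called in opposite directions against parental cells; of all tested genes, 1.93% were. The calls of 4 of these 13 held under every alternative tried. Leaving out 1 library ended 5 of them. They were Suv39h2 (without parental or clone 19 or clone 1 replicate 2 or 3, limma adjusted p = 0.05 to 0.12), Kdm3b (without clone 1 replicate 1 or 3 or clone 19 replicate 1, 0.084 to 0.12), Tet3 (without clone 1 replicate 2 or clone 19 replicate 1 or 3, 0.086 to 0.1), Ehmt1 (without replicate 2 of either clone, 0.057 and 0.065) and Dnmt1 (without replicate 1 of either clone, 0.059 and 0.063).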

How the results depend on the processing

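Leaving out 1 library at a time gave 9 to 15 members called higher and 13 to 15 lower in clone 1, 7 to 10 and 14 to 18 in clone 19, and 5 to 9 and 4 to 7 in clone 19 against clone 1; over all genes it gave 8556 to 9107, 8094 to 8781 and 4434 to 5207 calls, against 9096, 8675 and 5404. The calls of 16 of 24 members in clone 1, 12 of 25 in clone 19 and 4 of 13 between the clones held under every alternative, and 15, 7 and 6 uncalled members were called under at least 1.

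With neighbouring genes subtracted, 4 members were higher and 1 was lower in clone 19 against clone 1 (7 and 6 without), while calls over all genes went from 5404 to 4126. That setting also turned the direction of Smyd2 (-0.162), Setdb1 (-0.123), Ehmt2 (0.013), Dot1l (0.102) and Kdm3a (-0.103) in clone 1, of Setdb1 (-0.135), Ehmt2 (0.053), Dot1l (0.042) and Uhrf1 (0.120) in clone 19, and of Smyd2 (0.003), Dnmt1 (0.009), Cxxc1 (0.022), Morc2a (0.032), Mllt1 (-0.009) and Mbd1 (0.10) between the clones; the cause was not tested. A change of sign between values that were both uncalled was not counted. Between the clones, median-ratio scaling gave 8 members higher and 4 lower (20.7% and 21.6% of all tested genes), and quantile normalization 9 and 5 (19.5% and 22.7%), against 18.5% and 24.5% without. Quantile normalization turned Cdh1 in clone 1 (0.256).

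The replicate block gave 11 higher and 14 lower in clone 1, 8 and 16 in clone 19, and 7 and 4 between the clones, with 9037, 8574 and 5169 calls over all genes. Same-numbered libraries correlated in their deviations at -0.035 to 0.123, and differently numbered ones at -0.14 to 0.081. Between clone 1 and parental cells the same-numbered values were 0.123, 0.068 and 0.071, and the others ran from -0.14 to 0.059. With 3 libraries per group, these values do not settle whether the numbers pair the samples. Depth limits the low members most: an estimated 2 to 13 reads per library stood behind Tet1, 35 to 143 behind Kdm7a and 86 to 156 behind Dnmt3b.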
